A study of Mus musculus with 37 samples.

Results

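The cortex of adult and adolescent male mice was compared in 8 of the 37 RNA-seq libraries of this series, the 8 from mice that drank plain water and were injected with saline. The 3 adult libraries (replicates 1, 3 and 5) and the 5 adolescent libraries (replicates 1 to 5) were picked by the age, drinking water and injection in their labels, and no measured value entered the choice. All mice were wild-type C57BL/6J males injected subcutaneously for 5 days, starting on postnatal day 25 in adolescents and on postnatal day 55 in adults. The labels name the tissue as brain and the cell type as all cells, while the title of the series says medial prefrontal cortex. The other 29 libraries come from mice of both ages given morphine at 15 mg/kg, oral antibiotics, or both, and they served here as another measurement of age. No label says that each library came from its own mouse, so p-values measure the spread between these libraries.

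Between weaning and adulthood the rodent prefrontal cortex is still maturing. Neurite growth slows and synapses are pruned. Fast-spiking interneurons, which mostly contain parvalbumin, gain the potassium and sodium channels that let them fire rapidly, and a perineuronal net of matrix proteins forms around many of them. Oligodendrocyte precursors, marked by the receptor Pdgfra, pass through a short premyelinating stage marked by Gpr17 before they make myelin.

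Total counts were 10630727 to 27898977 in adolescents and 13490318 to 16924395 in adults, and mitochondrially encoded genes took 4.36 to 5.24% and 4.47 to 4.75% of them. Levels below are CPM, read counts scaled to a common library size by the TMM method. Adolescent replicate 1 stood apart in its marker levels. The summed level of 14 genes of striatal neurons was 2111 CPM there, 351 to 410 CPM in the other 4 adolescents and 370 to 384 CPM in the adults. The summed level of 23 genes of mature oligodendrocytes and myelin was 23121 CPM there, 1540 to 3456 CPM in the other adolescents and 2253 to 3214 CPM in the adults. The summed level of 14 genes of cortical excitatory neurons was 5427 CPM there, against 8698 to 9527 CPM in the other adolescents and 8279 to 8916 CPM in the adults, so markers of cortex were present in all 8. The counts of calls are therefore also given without that library, and so are the named genes and lists whose calls it changed. Adolescent replicate 5 held 808 counts of islet hormone genes.

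**Figure D1:**
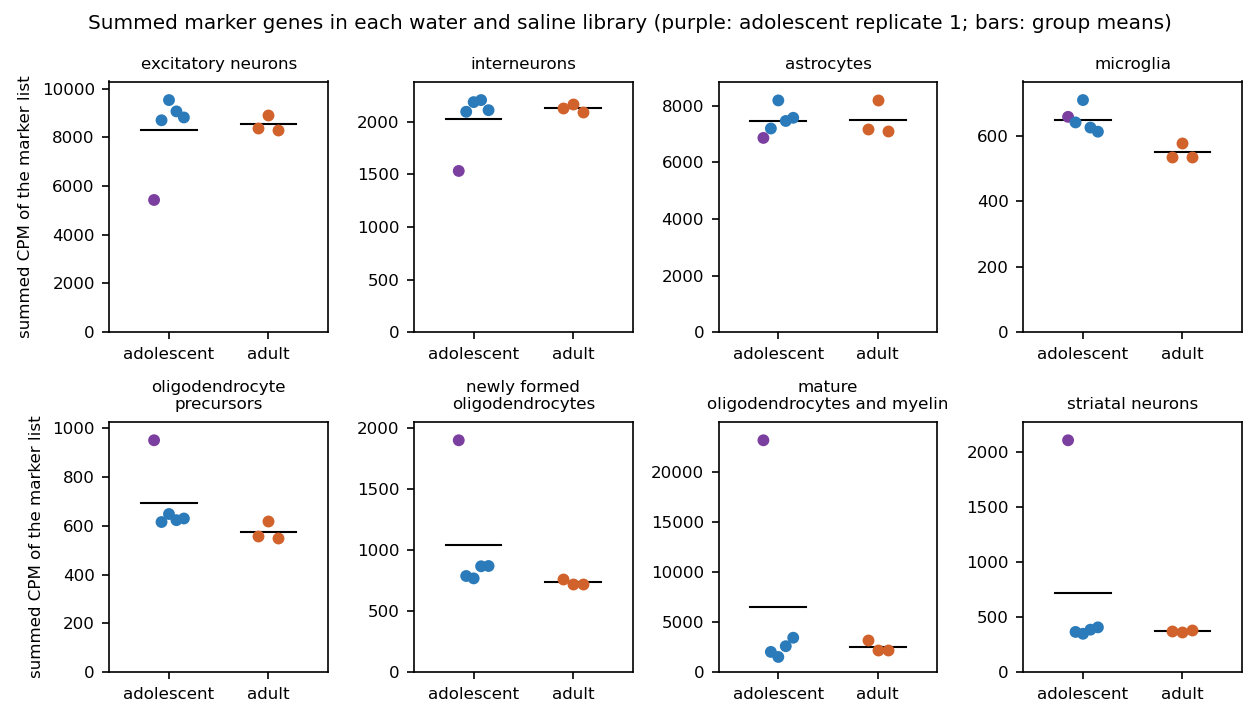
Summed CPM of 8 marker lists in each of the 8 libraries, adolescent on the left and adult on the right of each panel; points are libraries, bars are group means and purple marks adolescent replicate 1. That library lies far above the others for striatal and myelin genes and below them for excitatory and interneuron genes.

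With all 8 libraries, 508 of 19348 genes passed an adjusted p of 0.05 for age (2.63% of the genes tested; edgeR quasi-likelihood test, Benjamini-Hochberg). Of these, 239 were higher in adults (1.24%) and 269 lower (1.39%). Counts of gene lists below are to be read against these shares. Without adolescent replicate 1, 730 of 19259 genes passed (3.79%), 294 higher (1.53%) and 436 lower (2.26%). The calls shared 388 genes, all with the same sign, while 120 passed only with that library in and 342 only with it out. Most changes were small: 307 of the 508 were below 0.5 on the log2 scale and 78 were above 1. The ranges of the 2 ages did not overlap for 461 of the 508 genes, as they did not for 2325 of all genes tested (12%, with 6.26% higher and 5.75% lower in adults). The count fell to 120, 105 and 188 genes without adult replicate 1, 3 or 5, and 64 genes passed whichever of the 8 libraries was left out. The count also depends on the libraries that are fitted. The main fit estimates the spread over all 37, and the same test on only these 8 gave 11 genes. On only 7, without adolescent replicate 1, it gave 1590. The count was 136 in DESeq2 and 1860 in limma-voom, both on all 37. In these bulk samples, fewer cells of a type and less RNA per cell cannot be told apart.

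The gene with the smallest p was Marcksl1. Marcksl1 (ENSMUSG00000047945), which links actin to the membrane in growing neurites, was at 169, 178, 193, 162 and 141 CPM in adolescents 1 to 5 and at 58.0, 68.1 and 71.4 CPM in adults 1, 3 and 5. Every adolescent library was above every adult one by a wide margin. On the log2 scale the change, adult minus adolescent, was -1.36 (SE 0.12, adjusted p = 3.15e-09, edgeR) and was -1.35 without adolescent replicate 1.

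Gnb4 (ENSMUSG00000027669), a G protein beta subunit, was at 54.7, 39.3, 37.9, 36.0 and 33.1 CPM in adolescents and at 21.3, 21.0 and 20.9 CPM in adults. The adults were nearly equal, and adolescent replicate 1 was the highest of all. The log2 fold change was -0.94 (SE 0.13, adjusted p = 4.94e-05, edgeR), or -0.79 without that library. Polr2d, a subunit of RNA polymerase II, was at 16.0, 15.8, 15.0, 16.3 and 16.0 CPM in adolescents and at 10.9, 9.90 and 10.9 CPM in adults. Both groups were tight and far apart (log2 fold change -0.58, SE 0.09, adjusted p = 0.000212, edgeR). Also lower in adults were Pnck, a calmodulin-dependent kinase (-0.52), Arhgap33, a GTPase-activating protein (-0.48), Ctnnbip1, an inhibitor of beta-catenin (-0.39), Serf1 (-0.74), Emid1 (-0.89), Ehbp1l1 (-0.62) and Dcakd (-0.46). Each of these 7 passed with every library left out in turn. In the other treatments Ehbp1l1 did not pass (log2 fold change -0.15, adjusted p = 0.0559, edgeR), while the rest of the 7 did.

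Among genes higher in adults, Hsf4 (ENSMUSG00000033249), a heat shock transcription factor, was at 7.57, 9.44, 8.23, 10.04 and 9.05 CPM in adolescents and at 16.2, 14 and 15.9 CPM in adults. The groups were well apart (log2 fold change 0.80, SE 0.10, adjusted p = 2.56e-05, edgeR). Xdh (ENSMUSG00000024066), which oxidises hypoxanthine and xanthine to uric acid, was at 2.23, 1.54, 2.47, 2.69 and 3.19 CPM in adolescents and at 4.90, 8.29 and 6.70 CPM in adults. All adults were higher, but they varied among themselves more than the adolescents (log2 fold change 1.42, SE 0.19, adjusted p = 4.37e-05, edgeR). Plxdc1, a membrane protein of blood vessels, was at 14.3, 17.8, 18.4, 22.5 and 24.7 CPM in adolescents and at 37.4, 34.8 and 34.3 CPM in adults, with a log2 fold change at 0.86 (SE 0.12, adjusted p = 4.94e-05, edgeR). The lowest adult was above the highest adolescent. Jade2, part of a histone acetyltransferase complex, rose by 0.35, Znfx1, a helicase of antiviral defence, by 0.37, and Camta1, a calmodulin-binding transcription activator, by 0.36. Aifm3 (0.80), Trim66 (0.63), Osbpl3, an oxysterol-binding protein (0.58), and Abcc8, the sulfonylurea receptor subunit of ATP-sensitive potassium channels (0.58), were higher too. All 7 passed with every library left out in turn. In the other treatments Abcc8 did not pass (log2 fold change 0.13, adjusted p = 0.119, edgeR), while the rest of the 7 did.

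**Figure D2:**
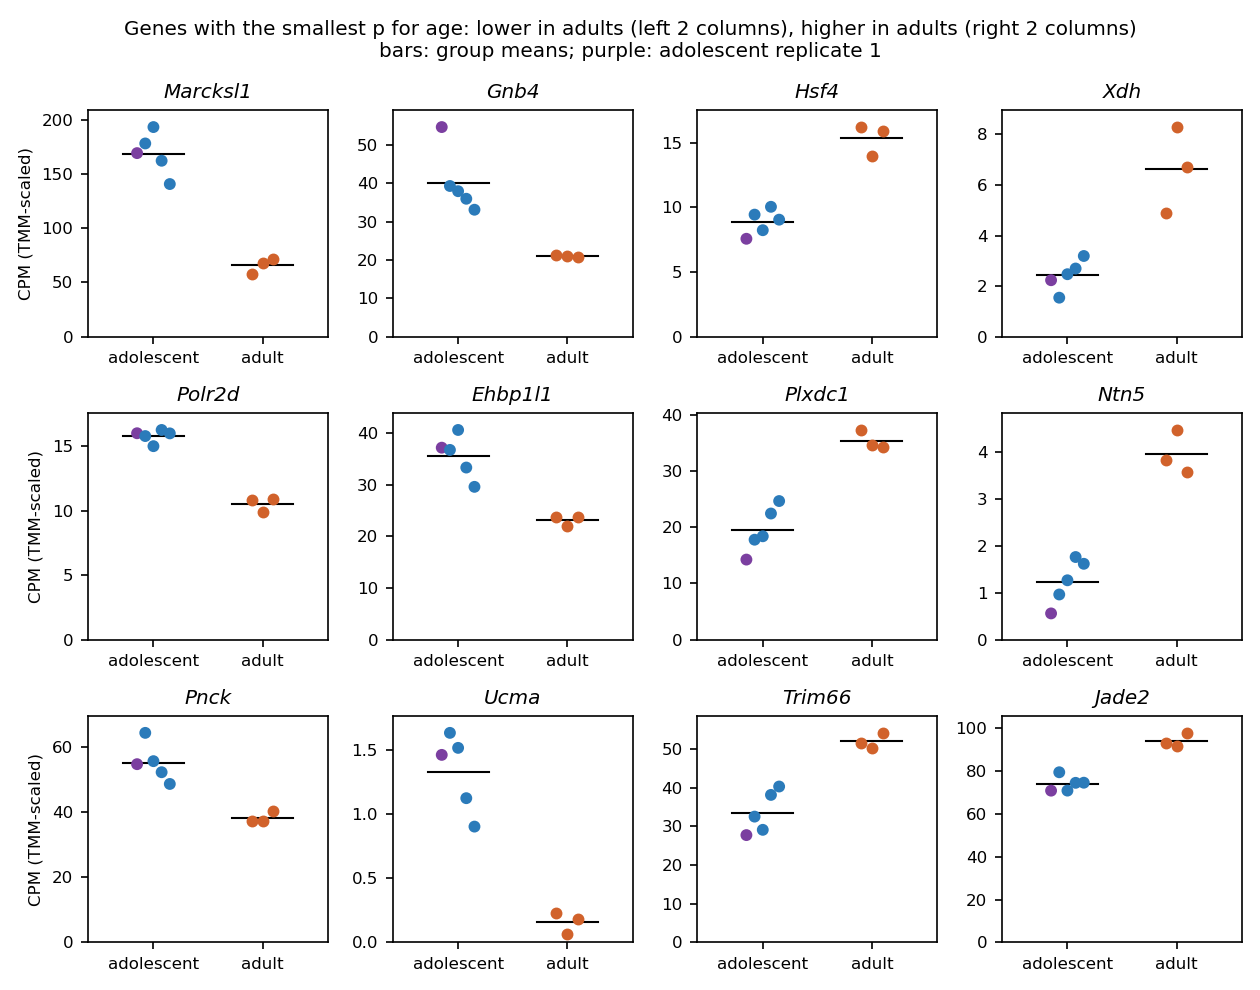
CPM in each library of the 6 genes with the smallest p in each direction, lower in adults in the left columns and higher in adults in the right columns; points are libraries, bars are group means and purple marks adolescent replicate 1. In every panel the 3 adults lie outside the range of the 5 adolescents.

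Among genes that passed with and without adolescent replicate 1 at a mean of at least 1 CPM, the 10 with the largest fold changes in each direction were mostly scarce: 17 of these 20 had means below 10 CPM at both ages, and Marcksl1, Cd24a and Igfn1 did not. Ucma, a secreted protein named for cartilage, was at 1.46, 1.64, 1.52, 1.13 and 0.905 CPM in adolescents and at 0.226, 0.0669 and 0.179 CPM in adults. The adult values are a few reads per library, so the fitted log2 fold change, -3.01 (SE 0.50, adjusted p = 0.000565, edgeR), is imprecise. H19, a maternally expressed imprinted non-coding RNA, was at 0.314, 0.0963, 0.633, 0.196 and 0.238 CPM in adolescents and at 1.58, 1.94 and 2.03 CPM in adults. The ranges did not overlap (log2 fold change 2.59, SE 0.60, adjusted p = 0.0139, edgeR), and the fold change was 3.74 in the other treatments (adjusted p = 1.88e-06, edgeR). H19 missed the threshold without adult replicate 1, 3 or 5 (adjusted p = 0.0506, 0.0713 and 0.0652, edgeR). Agmat, named as an agmatinase (2.13), Six4, a homeobox factor (1.64), Nxf7 (1.51), Lrg1 (1.43), C1ra, a protease of the classical complement pathway (1.25), Igfn1 (1.24) and Kazald1 (1.22) were higher in adults, all but Igfn1 at a mean below 6 CPM in either group. Nnmt, which methylates nicotinamide (-1.94), and Maats1 (-1.35) were lower. Glp1r, the receptor of an incretin hormone, was at 10.4 CPM in adolescent replicate 1 and at 0.784 to 2.03 CPM in the other adolescents, against 0.299 to 0.401 CPM in adults, and its log2 fold change moved from -3.14 to -1.73 without that library. Agmat, C1ra, Kazald1, Nnmt, Maats1 and Glp1r did not pass in the other treatments (adjusted p = 0.0831 to 0.928, edgeR). Ucma, Six4 and Lrg1 passed there with the same sign (adjusted p = 0.0144, 0.00012 and 0.0277, edgeR). In water and saline mice, Six4 and Lrg1 missed the threshold without adult replicate 3 (adjusted p = 0.0547 and 0.186, edgeR). The pituitary hormone gene Gh passed (adjusted p = 0.035, edgeR) on 1 library: it was at 9.69 CPM in adolescent replicate 3, at 0 to 0.857 CPM in the other adolescents and at 0 to 0.0754 CPM in adults.

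Genes of immature neurons and neurite growth were lower in adults as a group. Of 23 tested, 9 fell, 0 rose and 14 did not pass, and all 23 had a fold change below 0. The median log2 fold change was -0.36, against -0.01 for all genes tested, of which 10129 of 19348 were below 0 and 1.39% were called lower. Without adolescent replicate 1, 11 fell and the median was -0.31. In the other treatments, 13 of the 23 fell, against 6.5% of all genes tested.

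The 9 genes that fell include cytoskeletal and surface proteins and transcription factors. Marcks, the larger relative of Marcksl1, was at 296, 246, 248, 239 and 225 CPM in adolescents and at 190, 195 and 183 CPM in adults (log2 fold change -0.41, SE 0.07, adjusted p = 0.000653, edgeR). Tuba1a, the main alpha-tubulin of growing neurons, was at 615, 593, 545, 562 and 539 CPM against 446, 435 and 451 CPM (log2 fold change -0.36, SE 0.09, adjusted p = 0.0177, edgeR). Neither gene had overlapping groups. Cd24a, a surface glycoprotein of young neurons, was at 28.5, 10.4, 8.74, 7.54 and 8.24 CPM in adolescents and at 2.41, 2.67 and 2.63 CPM in adults. Adolescent replicate 1 was the outlying library, and the log2 fold change was -2.32 with it and -1.75 without it (adjusted p = 0.00156 and 0.000836, edgeR). St8sia2, which adds polysialic acid to the adhesion molecule Ncam1, was at 13.1, 8.28, 7.53, 6.03 and 4.52 CPM in adolescents and at 2.11, 3.68 and 4.13 CPM in adults. The lowest adolescent and the highest adult were close (log2 fold change -1.25, SE 0.26, adjusted p = 0.00543, edgeR). St8sia2 missed the threshold without adult replicate 1 (adjusted p = 0.0795, edgeR). It did not pass in the other treatments (log2 fold change -0.18, adjusted p = 0.446, edgeR). Sox11, a transcription factor of newborn neurons, was at 43.7 CPM in adolescent replicate 1, at 12.9 to 15.4 CPM in the other adolescents and at 8.43 to 11.5 CPM in adults, and its log2 fold change moved from -0.99 to -0.44 without that library while it still passed. Sox4, Dpysl3 and Tubb2b also fell (-0.59, -0.59 and -0.53), and Sox4 was at -0.31 without that library. Tubb2b missed the threshold without adolescent replicate 1 (adjusted p = 0.0724, edgeR). Sox4, Sox11, Dpysl3 and Tubb2b lie beyond the 5 genes per list that the naming rule takes.

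Channel genes that passed were higher in adults. Of 42 potassium, sodium and pacemaker channel genes tested, 9 rose and 0 fell, against 1.24% and 1.39% of all genes tested. The other 33 did not pass, and the median log2 fold change of the 42 was 0.12, against -0.01 for all genes. Without adolescent replicate 1, 7 rose and 1 fell, with a median of 0.08. The 9 that rose include Kcna1, Kcna2, Kcnc1, Kcnj3, Scn1a and Scn8a. Kcna1, Kcnj3, Scn8a and, below, Scn4b are named after their values were seen.

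Scn1a, the sodium channel that carries the firing of many fast-spiking interneurons, was at 88.1, 114, 106, 145 and 153 CPM in adolescents 1 to 5 and at 189, 181 and 175 CPM in adults 1, 3 and 5. Adolescents 4 and 5 lay nearest to the adults. The log2 fold change was 0.58 (SE 0.12, adjusted p = 0.00747, edgeR) with all libraries and 0.48 (adjusted p = 0.0142) without adolescent replicate 1. Kcnc1, a potassium channel that ends the action potential quickly, was at 132, 184, 188, 212 and 205 CPM against 231, 239 and 235 CPM (log2 fold change 0.35, SE 0.08, adjusted p = 0.0163, edgeR). In both genes replicate 1 was the lowest adolescent and replicates 4 and 5 were the highest. Kcna1, a channel of axons, was the exception: it was at 82.4, 49.8, 52.0, 67.0 and 71.6 CPM in adolescents, with replicate 1 the highest, and at 92.7, 84.2 and 82.9 CPM in adults, and its log2 fold change was 0.41 with that library and 0.51 without it (adjusted p = 0.0373 and 0.00353, edgeR). Kcna2 and Scn8a passed with all libraries and missed the threshold without adolescent replicate 1 (adjusted p = 0.0521 and 0.0677, edgeR). Scn4b, a sodium channel subunit also made in striatum, was at 361 CPM in adolescent replicate 1, at 30.6 to 64.8 CPM in the other adolescents and at 89.4 to 119 CPM in adults. It passed only without that library, at 1.14 on the log2 scale (adjusted p = 0.00462, edgeR).

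Syt2 and Vamp1, of vesicle release, and Hapln4, of the matrix, also rose. Syt2, the calcium sensor for release at fast inhibitory synapses, was at 22.4, 20.4, 17.2, 35.2 and 39.1 CPM in adolescents and at 67.6, 57.0 and 51.6 CPM in adults. The groups did not overlap (log2 fold change 1.11, SE 0.26, adjusted p = 0.0166, edgeR). Vamp1, a vesicle membrane protein, was at 48.7, 69.8, 65.8, 95.4 and 104 CPM against 144, 129 and 120 CPM (log2 fold change 0.77, SE 0.19, adjusted p = 0.0207, edgeR). Hapln4, a link protein of perineuronal nets, was at 55.5, 92.6, 111, 119 and 123 CPM against 162, 160 and 146 CPM (log2 fold change 0.64, SE 0.16, adjusted p = 0.0264, edgeR). Replicates 4 and 5 were the highest adolescents for each. Pvalb, parvalbumin itself, was at 16.1, 30.7, 30.4, 46.1 and 48.5 CPM in adolescents and at 50.4, 47.6 and 44.5 CPM in adults. Adolescents 4 and 5 lay within the adult range and Pvalb did not pass (log2 fold change 0.47, SE 0.22, adjusted p = 0.255, edgeR). Scn1a, Kcnc1, Syt2, Vamp1 and Hapln4 kept their sign without any 1 library, but each had an adjusted p above 0.05 in at least 1 such fit, with the highest between 0.0628 and 0.132 when an adult was left out. The rise of Scn1a (adjusted p = 0.434, edgeR), Syt2, Vamp1 and Kcnc1 did not pass in the other treatments. There, 0 of the 30 vesicle and release genes rose and 7 fell, and 0 of the 21 interneuron genes rose and 2 fell. Of all genes tested, 5.1% rose and 6.5% fell there.

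**Figure D3:**
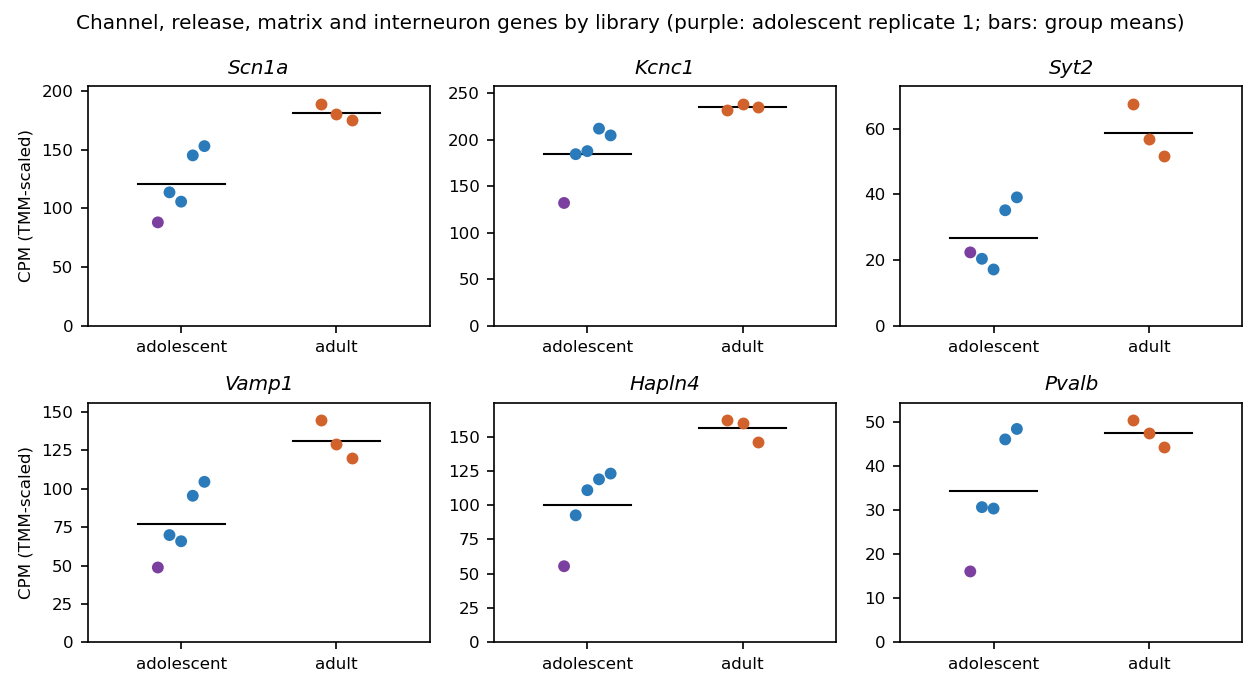
CPM in each library of 6 genes of ion channels, vesicle release, matrix and interneurons, adolescent on the left and adult on the right; points are libraries, bars are group means and purple marks adolescent replicate 1. The adults lie above all adolescents for Scn1a, Kcnc1, Syt2, Vamp1 and Hapln4, while the groups overlap for Pvalb.

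Most glutamate receptor genes did not pass, as most genes tested did not. Of 28 NMDA, AMPA and kainate receptor and accessory genes, 3 fell and 0 rose, against 1.39% and 1.24% of all genes tested. The other 25 did not pass, and the median log2 fold change of the 28 was -0.07. Without adolescent replicate 1, 4 of the 28 fell and the median was -0.14. Cacng4, an AMPA receptor accessory protein, was at 65.8, 39.1, 48.9, 38.6 and 35.1 CPM in adolescents and at 27.5, 30.5 and 26.6 CPM in adults (log2 fold change -0.70, SE 0.12, adjusted p = 0.00102, edgeR). Cnih2, which helps export AMPA receptors, was at 219, 252, 256, 239 and 234 CPM against 182, 187 and 186 CPM (log2 fold change -0.37, SE 0.07, adjusted p = 0.00346, edgeR). Grin3a, the NMDA receptor subunit of immature synapses, was at 47.1, 66.3, 64.1, 58.0 and 58.3 CPM against 41.1, 43.9 and 44.9 CPM (log2 fold change -0.43, SE 0.09, adjusted p = 0.00407, edgeR). None of the 3 had overlapping groups, which held for 461 of the 508 called genes and 12% of all genes tested. Grin3a missed the threshold without adult replicate 1 (adjusted p = 0.0514, edgeR). All 3 fell in the other treatments too, with log2 fold changes of -0.38, -0.30 and -0.37. There, 6 of the 28 fell, against 6.5% of all genes tested. Grin2b and Grin2a, the NMDA receptor subunits that dominate in young and in mature cortex, did not pass. The log2 fold changes were 0.13 for Grin2b (adjusted p = 0.601) and 0.30 for Grin2a (adjusted p = 0.219, edgeR). For Grin2a, adolescent replicate 1 was at 95.6 CPM and the other adolescents at 156 to 191 CPM, against 189 to 201 CPM in adults.

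Of 24 genes of GABA receptors and GABA handling, 0 passed with all libraries. Gad1, a GABA-making enzyme that is named here after its values were seen, passed only without adolescent replicate 1, at 0.25 on the log2 scale (adjusted p = 0.0243, edgeR). Of 30 genes of synaptic vesicles and release, Syt2 and Vamp1 rose, 0 fell and 28 did not pass. Without adolescent replicate 1 these 2 rose and 4 fell: Syn2, Syp, Vamp2 and Stx1a, general proteins of vesicles and of the release machinery. Syn2, a synapsin that tethers vesicles, was at 415 CPM in adolescent replicate 1 and at 694, 745, 649 and 591 CPM in the other adolescents, against 507, 522 and 558 CPM in adults. Its log2 fold change was -0.23 with that library and -0.34 without it (adjusted p = 0.204 and 0.00206, edgeR).

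Of 30 genes of perineuronal nets and brain matrix, 1 rose and 3 fell, against 1.24% and 1.39% of all genes tested. The other 26 did not pass, and the median log2 fold change of the 30 was -0.13. Leaving out adolescent replicate 1 gave 1 that rose, 4 that fell and a median of -0.06. The 1 that rose was Hapln4. Sparc, a matrix protein that astrocytes and vessels secrete, was at 188, 192, 207, 177 and 170 CPM in adolescents and at 120, 135 and 127 CPM in adults, with no overlap (log2 fold change -0.56, SE 0.10, adjusted p = 0.00122, edgeR). Timp2, an inhibitor of matrix metalloproteinases, fell by 0.25 and Hapln1, another link protein, by 0.37 (adjusted p = 0.0226 and 0.035, edgeR). For Hapln1, adolescent replicate 3 was at 31.0 CPM and the other adolescents at 25.0 to 26.6 CPM, close to the highest adult at 24.1 CPM. None of 33 collagen and vascular basement membrane genes passed.

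Of 44 axon guidance and adhesion genes, 4 rose and 1 fell, against 1.24% and 1.39% of all genes tested, and 39 did not pass. Ntn5, a netrin family member, was at 0.558, 0.963, 1.27, 1.76 and 1.62 CPM in adolescents and at 3.85, 4.48 and 3.59 CPM in adults. Every adult was above every adolescent, and the log2 fold change was 1.69 (SE 0.24, adjusted p = 4.94e-05, edgeR). Robo3, a receptor of the Slit pathway (1.23), Sema7a, a membrane semaphorin (0.34), and Plxna2, a semaphorin receptor (0.24), rose, and Efnb2, a ligand of Eph receptors, fell by 0.29. Robo3 and Sema7a missed the threshold without adolescent replicate 1 (adjusted p = 0.0593 and 0.0586, edgeR). Ntn5 and Efnb2 did not pass in the other treatments, with log2 fold changes of 0.29 and -0.06 (adjusted p = 0.127 and 0.214, edgeR).

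Calls in the oligodendrocyte lineage depended on adolescent replicate 1. Of 13 genes of oligodendrocyte precursors, 3 fell with all libraries and 1, Pdgfra, without it, and the median log2 fold change moved from -0.39 to -0.15. Pdgfra was at 56.7, 49.7, 53.1, 48.6 and 52.6 CPM in adolescents and at 40.9, 41.2 and 41.5 CPM in adults (log2 fold change -0.34, SE 0.09, adjusted p = 0.0212, edgeR). The adult values were tight and below every adolescent. Of 17 genes of newly formed oligodendrocytes, 5 fell with all libraries and 3 without that library, and the median moved from -0.48 to -0.21. Gpr17, a receptor of the premyelinating stage, was at 154, 71.4, 67.7, 73.5 and 69.8 CPM in adolescents and at 46.3, 49.7 and 45.2 CPM in adults. Adolescent replicate 1 was more than any other library, yet the other 4 were also above the adults, and the log2 fold change was -0.90 with it and -0.59 without it (adjusted p = 0.00548 and 0.00018, edgeR). Fyn, a kinase of oligodendrocyte differentiation that neurons also make, was at 158, 126, 122, 125 and 126 CPM against 104, 104 and 101 CPM (log2 fold change -0.35, SE 0.06, adjusted p = 0.00102, edgeR). Of 23 genes of mature oligodendrocytes and myelin, 0 passed with or without that library, and the median turned from -1.28 to 0.19. Mbp, a main myelin protein, was at 8675, 748, 540, 967 and 1277 CPM in adolescents and at 1265, 841 and 866 CPM in adults. Apart from adolescent replicate 1, the groups overlapped.

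Striatal genes passed through adolescent replicate 1: 4 of 14 fell with it and 0 without it. Pdyn, the dynorphin precursor, is 1 of these 4 and is also made in cortex. It was at 41.5, 32.6, 35, 33 and 30.7 CPM in adolescents and at 17.9, 27.0 and 29.6 CPM in adults, and its adjusted p was 0.0471 with that library and 0.0959 without it (edgeR).

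Microglial genes had fold changes below 0 but seldom passed. This held for all 20 tested, with a median of -0.25 with all libraries and -0.26 without adolescent replicate 1, and their summed level was 612 to 709 CPM in adolescents and 535 to 578 CPM in adults. Of all 19348 genes tested, 10129 had a fold change below 0. Fcrls, a microglial receptor, fell by 0.44 on the log2 scale (SE 0.13, adjusted p = 0.0472, edgeR). C1qa and C1qc, subunits of the first complement component that tags synapses, passed only without that library, with log2 fold changes of -0.31 and -0.33 (adjusted p = 0.0456 and 0.0279, edgeR). In the other treatments 4 of the 20 fell, against 6.5% of all genes tested, and the median of the 20 was -0.11. Among 21 astrocyte genes 1 fell, Fabp7, a fatty acid carrier of radial glia and astrocytes, and among 14 excitatory neuron, 22 endothelial and 19 pericyte and fibroblast genes 0 passed. Of 21 interneuron genes, Kcnc1 and Syt2 rose and Nos1, the neuronal nitric oxide synthase, fell by 0.44 (adjusted p = 0.0364, edgeR). In the calls without adolescent replicate 1, 3 of the 21 rose and 2 fell. The interneuron list as a whole did not rise. Its median log2 fold change was -0.01 with all libraries, with 10 of the 21 genes above 0. Without adolescent replicate 1 the median was -0.09, with 8 above 0. For all genes tested the median was -0.01, with 9219 of 19348 above 0.

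**Figure D4:**
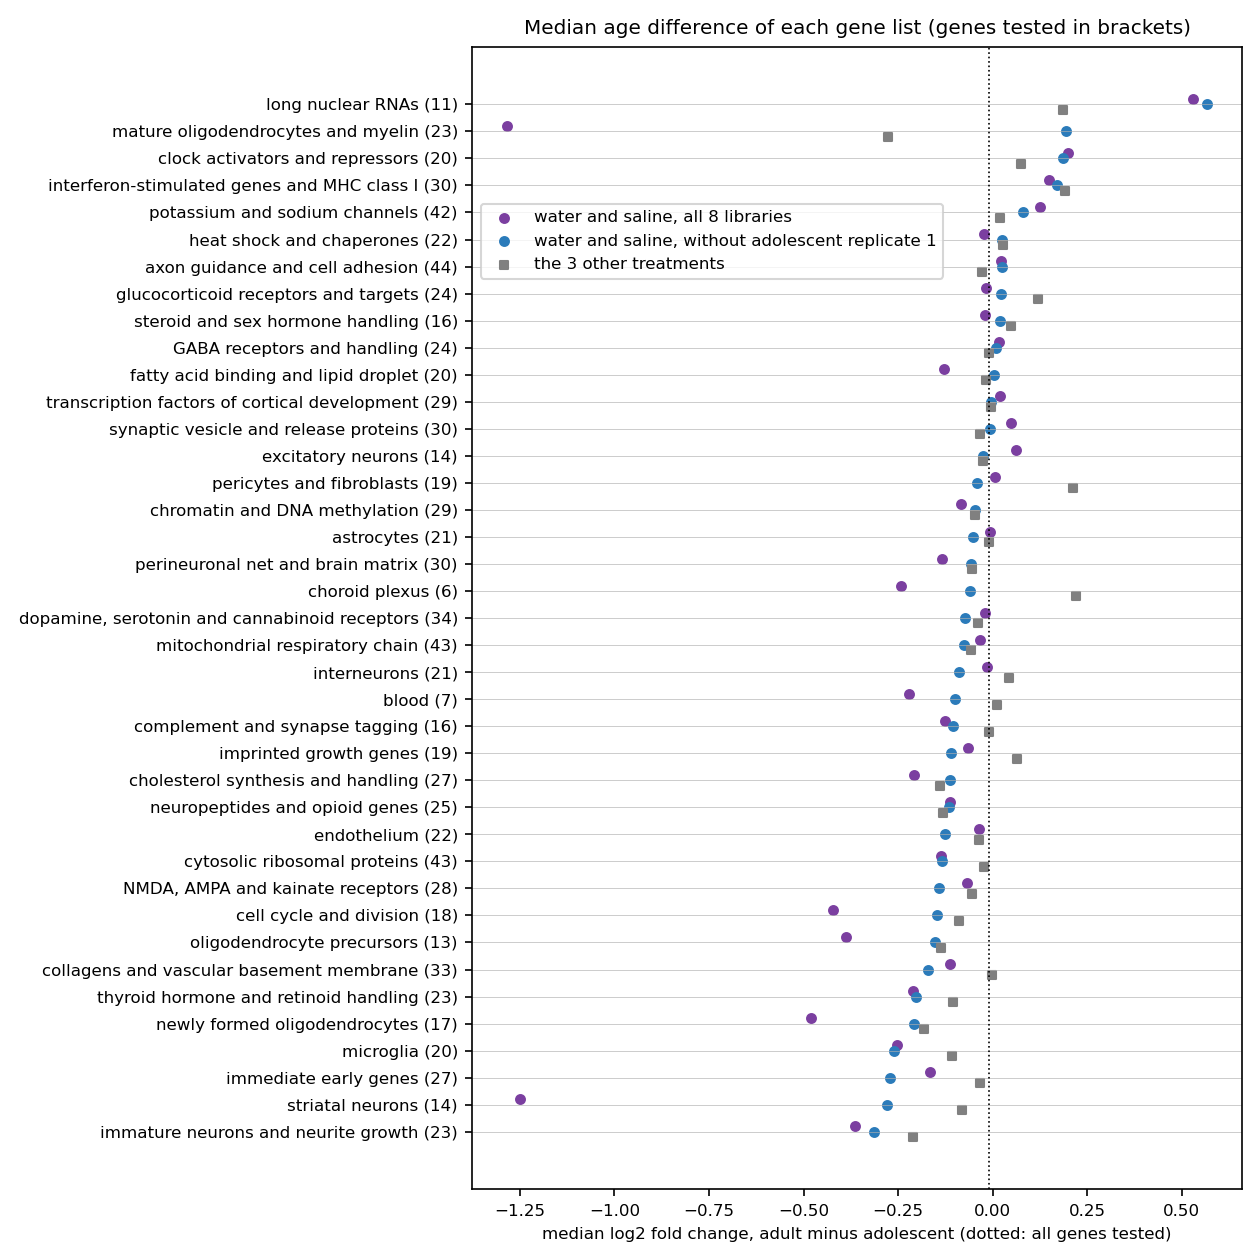
Median log2 fold change, adult minus adolescent, of each gene list with all 8 libraries (purple), without adolescent replicate 1 (blue) and in the 3 other treatments (grey); the dotted line is the median of all genes tested and the islet hormone list is left out. Myelin and striatal genes move most when adolescent replicate 1 is left out, while immature neuron, microglial and long nuclear RNA lists stay on the same side.

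Hormone and lipid pathways each held a few genes that passed. Thyroid hormone drives late brain maturation, and of 23 genes of thyroid hormone and retinoid handling 4 fell, 0 rose and 19 did not pass, with 3 that fell without adolescent replicate 1. Thra, the main thyroid hormone receptor of neurons, was at 748, 901, 863, 754 and 765 CPM in adolescents and at 602, 624 and 670 CPM in adults (log2 fold change -0.35, SE 0.09, adjusted p = 0.0242, edgeR). The groups did not overlap. Dio3, the enzyme that inactivates thyroid hormone, fell by 1.52 at levels of 0.359 to 2.41 CPM (adjusted p = 0.0277, edgeR), and Rxrg, a retinoid receptor that striatum makes, passed only with adolescent replicate 1, where it was at 30.2 CPM.

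Of 16 genes of steroid, sex hormone and growth factor handling, 2 rose and 1 fell, and without adolescent replicate 1, 1 rose and 1 fell. Esr1, an oestrogen receptor, was at 2.48, 3.56, 6.14, 2.94 and 2.81 CPM in adolescents and at 1.81, 1.40 and 1.74 CPM in adults (log2 fold change -1.10, SE 0.29, adjusted p = 0.0294, edgeR). Igf1r, the receptor of insulin-like growth factor, rose by 0.26. Of 24 glucocorticoid receptors and targets, 2 rose: Nr3c1, the glucocorticoid receptor, by 0.23 (adjusted p = 0.0304), and Zbtb16, a transcription factor that glucocorticoids induce, by 0.58 (adjusted p = 0.00102, edgeR). In the calls without adolescent replicate 1, 2 of the 24 rose and 1 fell. Of 20 genes of fatty acid binding and lipid droplets, 3 fell. Fabp7 was at 23.6, 21.3, 24.6, 17.7 and 14.9 CPM in adolescents and at 11.4, 12 and 10.8 CPM in adults (log2 fold change -0.84, SE 0.17, adjusted p = 0.00422, edgeR). Its relative Fabp5 fell by 0.31 and Fads2, a desaturase of polyunsaturated fatty acids, by 0.28.

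Among 20 clock genes 4 rose and 0 fell, against 1.24% and 1.39% of all genes tested. The other 16 did not pass, and the median log2 fold change of the 20 was 0.20. Without adolescent replicate 1, 5 rose and 1 fell: Bhlhe41, a repressor, joined those that rose and Nr1d1, another repressor, fell by 0.26, both named here after their values were seen. Per2 and Per3, repressors of the clock, were at 36.5 to 42.4 CPM and 40.8 to 48.6 CPM in adolescents. In adults they were at 46.2 to 57.8 CPM and 56.2 to 60.2 CPM. Neither overlapped between ages (adjusted p = 0.00483 and 0.0101, edgeR). Both missed the threshold without adult replicate 3 (adjusted p = 0.0712 and 0.095, edgeR), and Per2 also without adult replicate 5 (adjusted p = 0.0524). In the other treatments Per2 passed and Per3 did not (adjusted p = 0.0104 and 0.081, edgeR). Hlf and Nr1d2 rose by 0.32 and 0.21. Time of day at sampling is not in the labels and cannot be told apart from age here. Hlf encodes a factor that binds the D-box motif. The sequence shown is the 250 bases before the annotated start of Per3 in RefSeq (GRCm38.p6, chr4:151044666-151044915, minus strand, read along the gene), printed to show where the matches lie, with D-box matches (TTATGTAA, read on both strands) in capitals.
Per3: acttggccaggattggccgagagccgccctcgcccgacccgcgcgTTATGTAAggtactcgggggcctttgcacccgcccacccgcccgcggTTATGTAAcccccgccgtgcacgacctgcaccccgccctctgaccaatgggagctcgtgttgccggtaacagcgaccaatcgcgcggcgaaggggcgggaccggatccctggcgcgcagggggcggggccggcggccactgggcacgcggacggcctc
The 2 matches begin 205 and 158 bases before the start. A D-box stands in 0.819% of the 32851 windows of the same 250 bases in the RefSeq table, and it was not found in those of Hlf and Nr1d2. The E-box CACGTG, which 6.02% of windows hold, was in none of the 3.

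Of 22 heat shock and chaperone genes, 3 rose, 0 fell and 19 did not pass: Hsf4, Hspa1a and Hspa1b. Hspa1b, an inducible chaperone, was at 5.58, 3.56, 5.00, 4.41 and 3.43 CPM in adolescents and at 7.61, 7.02 and 8.08 CPM in adults (log2 fold change 0.77, SE 0.18, adjusted p = 0.0158, edgeR). Hspa1b missed the threshold without adult replicate 1, 3 or 5 (adjusted p = 0.0778, 0.0547 and 0.0876, edgeR). Hspa1a was at 4.81, 6.55, 5.70, 5.14 and 5.76 CPM against 7.99, 7.15 and 9.69 CPM (log2 fold change 0.58, SE 0.16, adjusted p = 0.0347, edgeR), and missed the threshold without adolescent replicate 1 (adjusted p = 0.0555). The 2 genes lie side by side and are near-identical copies, so reads may be split between them in ways that are not given. The 250 bases before each start (RefSeq, GRCm38.p6, chr17:34959239-34959488 for Hspa1b and chr17:34972157-34972406 for Hspa1a, both minus strand) are shown to make that likeness visible, with the heat shock element pair GAANNTTC in capitals.
Hspa1b: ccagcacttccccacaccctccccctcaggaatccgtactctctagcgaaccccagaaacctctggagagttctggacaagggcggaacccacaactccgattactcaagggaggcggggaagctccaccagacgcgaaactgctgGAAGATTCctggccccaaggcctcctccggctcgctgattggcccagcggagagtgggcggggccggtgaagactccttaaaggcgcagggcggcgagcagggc
Hspa1a: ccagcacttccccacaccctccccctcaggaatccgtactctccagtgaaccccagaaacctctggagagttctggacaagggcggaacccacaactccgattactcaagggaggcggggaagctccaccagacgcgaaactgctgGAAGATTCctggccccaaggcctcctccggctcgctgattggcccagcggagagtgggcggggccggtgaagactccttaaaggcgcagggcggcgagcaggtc
The 2 windows share 247 of 250 bases, and each holds 1 such pair, beginning 104 bases before the start. The pair, which reads the same on both strands, stands in 6.69% of windows.

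Immune and housekeeping lists held few calls, as did all genes tested (1.24% higher and 1.39% lower). Of 30 interferon-stimulated and MHC class I genes, 2 rose, 0 fell and 25 had a fold change above 0, with a median of 0.15. Of all 19348 genes tested, 9219 were above 0 and 10129 below, with a median of -0.01. H2-T22, an MHC class I gene, was at 10.4, 9.44, 10.4, 11.6 and 12.3 CPM in adolescents and at 15.1, 15.1 and 13.7 CPM in adults (log2 fold change 0.43, SE 0.11, adjusted p = 0.0339, edgeR). Tap2, a peptide transporter, rose by 0.51 (adjusted p = 0.0376, edgeR). H2-T22 has close relatives, so its reads are uncertain. All 43 ribosomal protein genes had a fold change below 0, with a median of -0.14, and 1 fell, Rplp0, by 0.28. The median was -0.13 without adolescent replicate 1, with 1 gene above 0, and Rplp0 missed the threshold (adjusted p = 0.056, edgeR), while in the other treatments 10 of the 43 were above 0 and the median was -0.02. Of 43 genes of the mitochondrial respiratory chain 0 passed with all libraries and 3 fell without adolescent replicate 1, while 14 fell and 3 rose in the other treatments. Of 27 cholesterol genes 0 passed, and 12 fell and 3 rose in the other treatments. Of all genes tested, 6.5% fell and 5.1% rose there. None of 27 immediate early genes passed. Fos was at 14.7, 27.6, 14.2, 41.2 and 34.3 CPM in adolescents and at 14.6, 16.7 and 30.0 CPM in adults, with overlapping groups. Among chromatin genes, Chd3, a remodelling ATPase, fell by 0.33 (adjusted p = 0.0306, edgeR) and Dnmt3a, a DNA methyltransferase, did not pass (log2 fold change -0.16, adjusted p = 0.407).

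Of 19 imprinted growth genes, H19 rose and Cdkn1c, a cell cycle inhibitor, fell by 0.64 (adjusted p = 0.0368, edgeR). Of 11 long nuclear RNAs only Peg13, an imprinted non-coding RNA, passed with all libraries, at 174, 205, 189, 234 and 241 CPM in adolescents and 276, 253 and 272 CPM in adults (log2 fold change 0.36, SE 0.07, adjusted p = 0.00515, edgeR). Peg13 missed the threshold without adult replicate 1 (adjusted p = 0.0576, edgeR). Malat1, Neat1, Meg3, Miat, Snhg11 and Kcnq1ot1 also lay higher in every adult than in every adolescent, with log2 fold changes of 0.53 to 0.73, but did not pass (adjusted p = 0.115 to 0.171, edgeR). Their names were picked here after their values were seen. Of all genes tested, 6.26% also lay higher in every adult than in every adolescent.

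The genes called higher in adults were long. The median genomic span was 46.5 kb for the 239 genes that were higher, 19.6 kb for the 269 that were lower and 18.4 kb for all genes tested. The median length over exons was 6.46, 3.71 and 3.74 kb in the same order. The median span without adolescent replicate 1 was 40.3 kb for the genes that were higher and 15.8 kb for those that were lower. Spans over 100 kb made up 31.6% of the genes that were higher, 12.8% of those that were lower and 12.7% of all. In the other treatments the genes that were higher had a median span of 38.3 kb and those that were lower 12.9 kb. Genes over 100 kb took 18.3 to 18.8% of each adolescent library and 18.8 to 19.1% of each adult one, while genes of 10 kb or less took 23.3 to 24.4% and 23.1 to 23.3%. The pattern is one of the called genes. All genes were also sorted by span into groups of 1882. The group with the shortest spans (0.049 to 2.09 kb) had the highest median log2 fold change, 0.06. Groups between 2.09 and 39.9 kb had medians of -0.04 to -0.02, and the group with the longest spans (over 120 kb) had 0.01. The part of gene length in the calls was not tested.

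Age was measured again in mice given morphine, antibiotics or both, which share no library with the 8. There, 2243 genes passed (11.6%), 986 higher (5.1%) and 1257 lower (6.5%) in adults. With DESeq2 size factors in place of TMM the majority turned, with 1255 higher and 1100 lower. Of the 508 genes, 483 (95.1%) had the same sign there, as had 66.7% of all genes tested. In the other treatments 265 of the 508 passed with the same sign, which is 52.2% of the 508 and 11.8% of the 2243, and 0 passed with the opposite sign. The median log2 fold change of the 239 genes that were higher was 0.41 in water and saline mice and 0.14 in the other treatments, and that of the 269 that were lower was -0.44 and -0.20. The 508 were picked on the first of each pair of values, so a smaller value in the second is fixed in part by the choice.

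The difference between the 2 age effects passed for 0 genes in edgeR's test, with 1505 genes at an unadjusted p under 0.05, and for 0 genes in DESeq2 and in limma-voom. Nothing is therefore called particular to water and saline mice. Some genes were still far apart in their estimates. Marcksl1 was at 125 ± 19.7, 142 ± 6.91 and 127 ± 9.48 CPM (SD, n = 5, 3 and 5) in adolescents given morphine, antibiotics or both, and at 67.0 ± 6.36, 63.1 ± 7.79 and 65.2 ± 3.77 CPM (SD, n = 5, 5 and 4) in adults. The adult means lie near that of the water and saline adults. Scn1a was at 176 ± 24.1, 160 ± 12.9 and 174 ± 14.8 CPM in these adolescents and at 178 ± 14, 179 ± 20.05 and 183 ± 9.95 CPM in the adults, and its log2 fold change there was 0.09 (adjusted p = 0.434) against 0.58 in water and saline mice. The test of the difference gave an adjusted p = 0.376 (edgeR). Of the 42 channel genes, 2 rose and 3 fell in the other treatments, where 5.1% of all genes tested rose and 6.5% fell. Xdh had nearly equal age effects in both settings, with log2 fold changes of 1.42 and 1.45.

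**Figure D5:**
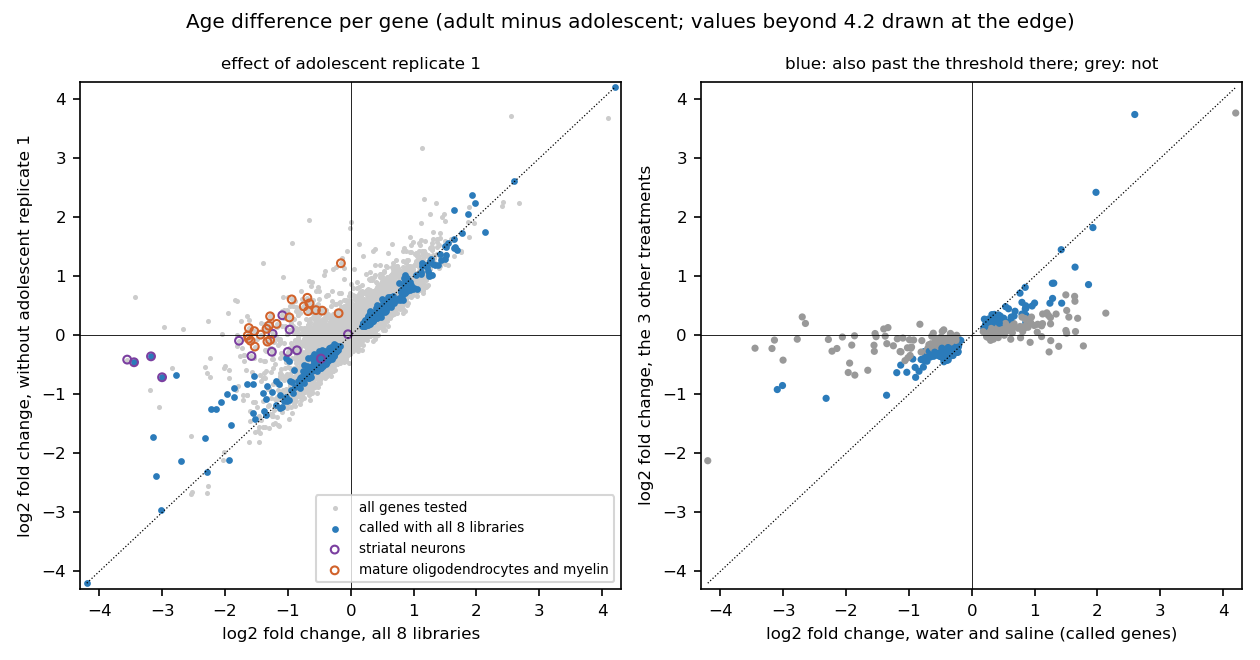
Left, log2 fold change of each gene tested with all 8 libraries against the same without adolescent replicate 1, with striatal (purple rings) and myelin genes (orange rings) marked. Right, the 508 genes that passed, with their log2 fold change in the 3 other treatments on the vertical axis and those that passed there in blue (265 genes); values beyond the axis limits are drawn at the edge.

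Of the 342 genes that passed only without adolescent replicate 1, that library lay beyond the other 4 adolescents on the side of the adults in 323, level with or past the nearest adult in 253 and past every adult in 152. The genes passed only without it, so this place follows in part from the choice. Cbx6, a Polycomb protein, was at 473 CPM there and at 668, 712, 683 and 668 CPM in the other adolescents, against 542, 527 and 522 CPM in adults. Without that library it was called lower in adults (log2 fold change -0.37, SE 0.06, adjusted p = 0.000312, edgeR), and with it the adjusted p was 0.0584. Sprn, a prion-like protein, was at 204 CPM there and at 323, 319, 322 and 323 CPM in the other adolescents, against 251, 242 and 273 CPM in adults, and its log2 fold change without that library was -0.34 (adjusted p = 0.00206, edgeR). Ass1, an enzyme of arginine synthesis, was at 32.5 CPM there and at 17.3, 14.8, 16.8 and 16.0 CPM in the other adolescents, against 21.3, 23.5 and 25.3 CPM in adults, and its log2 fold change without that library was 0.53 (adjusted p = 0.00158, edgeR). In all 3, the adults lay between adolescent replicate 1 and the other adolescents. Nsmf, which signals from synapse to nucleus (-0.34), Kcnmb4, a subunit of calcium-activated potassium channels (-0.34), and Trnp1 (-0.30) were called lower in the same way, and Mtx3 (0.32), Plk5, a brain kinase (1.04), Bbx (0.41), Nxf1, an mRNA export factor (0.37), and Sbsn (1.39) higher. These 11 genes and Syn2 are the 6 in each direction with the smallest p among genes that passed only without that library, and 10 of the 12 passed with the same sign in the other treatments. Syn2 and Sbsn did not (adjusted p = 0.143 and 0.533, edgeR). Of all 730 genes that passed without that library, 59.3% passed there with the same sign, as did 10.4% of all genes tested. The 12 were picked by smallest p and do not stand for the 342.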

How the data were processed

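Polyadenylated RNA was measured by RNA-seq. The values deposited by the authors are raw counts of reads for each gene in each library. STAR 2.7.10a, DESeq2 and the build mm10 are named in the submitters' processing notes. Neither strandedness nor the gene annotation is given in the sources used here. Of 56980 genes, 52073 had a symbol in GENCODE M21, and the other 4907 hold 3.86% of counts.

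These counts were fitted in edgeR 4.0.16 under R 4.3.3 (TMM, filterByExpr on the 8 groups of the series, a robust quasi-likelihood model with 1 coefficient per group over all 37 libraries, two-sided tests). P-values were adjusted by Benjamini-Hochberg over all 19348 genes tested, with a threshold of 0.05. The contrasts were adult minus adolescent in water and saline mice, the same over the means of the 3 other treatments, and their difference. Means of the other treatments use the 27 of 29 libraries over 1000000 counts. The error used is the spread between libraries, not a counting interval.

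Named genes had a symbol that is not predicted or clone-like. They were, per direction, the 12 with the smallest p and the 10 with the largest fold change among genes that passed with and without adolescent replicate 1 at a mean of at least 1 CPM. Added were up to 5 passing genes per list, 6 per direction that passed only without that library, and Marcksl1, Marcks, Pvalb, Grin2a, Grin2b, Mbp, Pdgfra, Dnmt3a and Fos. The members, the 40 lists and the rule were chosen with earlier results of these data known. Some genes that the rule takes are not reported here. Of the 117 named genes, 75 had a RefSeq promoter.

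Alternatives were DESeq2 1.42.0, edgeR with DESeq2 size factors, limma-voom (limma 3.58.1) with sample weights, no filter on low counts, other sets of libraries, the replicate number as a block, a covariate that marks libraries holding over 20 counts of islet hormones, and leaving out each library in turn. The fit was tested on simulated data. No 2 libraries were near-identical: the mean chi-square per gene between libraries of a group was 2.91 to 65.0.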

Additional observations from a re-analysis of the deposited data

Results flagged for a closer look

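In 28 of the 117 named genes, the highest or lowest of the 5 adolescent libraries stood away from the other 4 by more than 0.71 of the group's range. Chance gives this in about 1 of 20 genes, but the named genes are no chance sample: 12 were taken because they passed only without adolescent replicate 1, and others come from striatal and oligodendrocyte lists. In 26 of the 28 it was adolescent replicate 1, and 8 of these are among those 12. Their shares of the range, gap over range, were 0.713 for Gnb4, 0.9 for Zbtb16, 0.892 for Fyn, 0.739 for Abcc8, 0.864 for Cd24a, 0.933 for Gpr17, 0.871 for Glp1r, 0.779 for Cldn14, 0.894 for Fabp5, 0.735 for Neu4, 0.829 for Fads2, 0.79 for Mycl and 0.975 for Gpr6. They were 0.977 for Adora2a, 0.906 for Lims2, 0.986 for Syndig1l, 0.816 for Cbx6, 0.727 for Kcnmb4, 0.718 for Trnp1, 0.871 for Bbx, 0.967 for Sprn, 0.909 for Mbp, 0.791 for Nxf1, 0.827 for Sbsn, 0.854 for Ass1 and 0.734 for Grin2b. In the other 2 genes it was adolescent replicate 3, with 0.912 for Gh and 0.74 for Hapln1.

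Of these genes, striatal Gpr6, Adora2a and Syndig1l were at 23.3, 86.5 and 81.2 CPM in adolescent replicate 1 and at 0.867 to 1.42, 2.21 to 4.12 and 1.71 to 2.79 CPM in the other adolescents. In adults they were at 0.602 to 0.897, 1.66 to 2.81 and 1.6 to 1.79 CPM. None of these 3 passed for age without that library (adjusted p = 0.213, 0.458 and 0.53, edgeR). Neu4, Mycl and Lims2, genes of oligodendrocyte precursors and newly formed oligodendrocytes, also passed only with it (adjusted p without it 0.0618, 0.0892 and 0.107). Gnb4, Zbtb16, Fyn, Abcc8, Cd24a and Gpr17 passed for age with it and without it.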

How the results depend on the processing

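The count of 508 genes for age in water and saline mice was 105 to 730 when 1 of the 8 libraries was left out, lowest without adult replicate 3. It was 11 when only the 8 libraries were fitted and 1590 when only 7 were, without adolescent replicate 1. It was 877 in 34 libraries (that library and the 2 with under 1000000 counts left out), 136 in DESeq2, 1860 in limma-voom with sample weights and 371 with no filter on low counts, and 567 to 655 with the islet term, with DESeq2 size factors and in the 35 libraries over 1000000 counts. For the other treatments the 2243 genes became 1647 to 2550 with 1 library left out, 486 in DESeq2, 4276 in limma-voom and 1574 with the islet term, where 1 of the 2243 had the opposite sign. The count of 0 for the difference became 0 to 4 with 1 library left out, and 1 with no filter. The cause of these moves was not tested, apart from the fewer samples or genes that some settings use. Of 2058 values of named genes under the alternatives, 1603 stayed on their side of the threshold, 399 no longer passed, 56 newly passed and 0 turned the sign of a call. The sign of Mbp, which never passed, turned in 4 settings, with log2 fold changes of 0.16, 0.17 and 0.17 in the 3 fits without adolescent replicate 1 and 0.004 in limma-voom. Of the 98 named genes that passed, 33 did so in all 8 fits without 1 library. The split of the other treatments was 193 higher and 293 lower in DESeq2, and 1255 higher and 1100 lower with DESeq2 size factors in edgeR. With the replicate number as a block, 502 genes passed for age (251 higher, 251 lower), 441 of them among the 508, 2203 in the other treatments and 0 for the difference. Libraries with the same number deviated together with correlations of 0.108, 0.17 and 0.011 over 16403 genes, so the numbers were not taken to pair the samples, and not every library correlated best with its own number. Depth limits H19 and Ucma, which rest on few reads in the lower group.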
